A study of Mus musculus with 6 samples.

Results

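Aminoacyl-tRNA synthetases were followed in mouse embryonic stem cells after release of the transcription factor Tfe3 into the nucleus. Members were the genes of the deposited count table whose symbol is a capital letter followed by ars and an optional 1 or 2, together with Farsa, Farsb, Eprs, Tarsl2, Aimp1, Aimp2 and Eef1e1. The rule found 41 of 27179 genes, made up of 21 genes of cytosolic enzymes, 17 genes of mitochondrial enzymes (suffix 2) and 3 genes of scaffold proteins. All 41 passed the filter on low counts. Tarsl2 was counted as cytosolic, because its suffix does not mark a mitochondrial enzyme.

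The cells, grown in serum with the cytokine LIF, carried Tfe3-ERT2, murine Tfe3 fused to a hormone-binding domain that answers to tamoxifen. They received 4-hydroxytamoxifen (4OHT) at 1 µg/mL for 48 h in 3 libraries, or its ethanol vehicle (EtOH) in 3 libraries. Every library therefore carries the fusion, and a 4OHT group without the fusion was not analysed here. Neither the parent line nor the origin of a group's replicates (separate cultures or repeat libraries) is stated in the labels. The p-values thus describe spread among libraries, which may be technical.

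An aminoacyl-tRNA synthetase joins an amino acid to the tRNA that reads its codons, the step that fixes the genetic code. The cytosol and the mitochondrion make protein on separate ribosomes, and most amino acids have a separate nuclear gene for the enzyme of each compartment. In the cytosol of animals several of the enzymes sit in a multisynthetase complex held together by Aimp1, Aimp2 and Eef1e1. Uncharged tRNA activates the kinase Gcn2 and, through it, the factor ATF4, which is known to turn on many genes of cytosolic synthetases and of amino acid synthesis.

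Total counts lay between 4648374 and 6427880 in the 4OHT libraries and between 4092877 and 4984364 in the EtOH libraries. A count of 3 in a library corresponded to between 0.467 and 0.733 CPM (each gene's counts scaled to a common library total), a floor that covers counting error only. Tfe3 itself was at 832, 836 and 827 CPM in 4OHT and at 1074, 1035 and 1004 CPM in EtOH (SE 0.03 around a log2 fold change of −0.32, edgeR adjusted p = 9.8e-19). Its counts do not separate the fusion from the endogenous gene. All 10 listed markers of pluripotent stem cells were tested, of which 3 were higher and 4 lower. That is 70% called at an edgeR adjusted p under 0.05, against 42% of all tested genes. Their summed levels were 5559 to 5599 CPM in 4OHT and 5622 to 5720 CPM in EtOH. The library EtOH replicate 2 stood apart in Rn45s, the precursor of ribosomal RNA, which took 0.484% of its counts, while the other libraries lay between 0.660% and 1.30%.

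The synthetase genes moved downward. Of the 41 members, 20 were lower in 4OHT and 0 were higher at a Benjamini-Hochberg adjusted p under 0.05 in edgeR's quasi-likelihood test. Of all 12345 genes tested, 42% were called, 20.6% lower and 21.4% higher. At an unadjusted p under 0.05, edgeR gave 21 members lower and 0 higher. DESeq2 called 18 lower and 0 higher after adjustment, and limma-voom 20 lower and 0 higher. The falls were small. The called members were between 1.07-fold and 1.53-fold lower, with a median of 1.22-fold, and 6 of the 20 had a log2 fold change of at least 0.322 in size. The median log2 fold change of 4OHT over EtOH was −0.16 over the 41 members and −0.00 over all tested genes. The 3 libraries of 4OHT lay below all 3 libraries of EtOH for 20 members, and for 0 the other way. Of all tested genes, 48.8% were separated in either direction and 23.7% with 4OHT lower. Summed, the members held 0.862% to 0.907% of all counts in the 4OHT libraries and 0.965% to 1.03% in the EtOH libraries. These shares include Lars2, whose counts ran from 2203 in EtOH replicate 2 to 5857 in 4OHT replicate 1 and which is described with the ribosomal RNA.

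**Figure D1:**
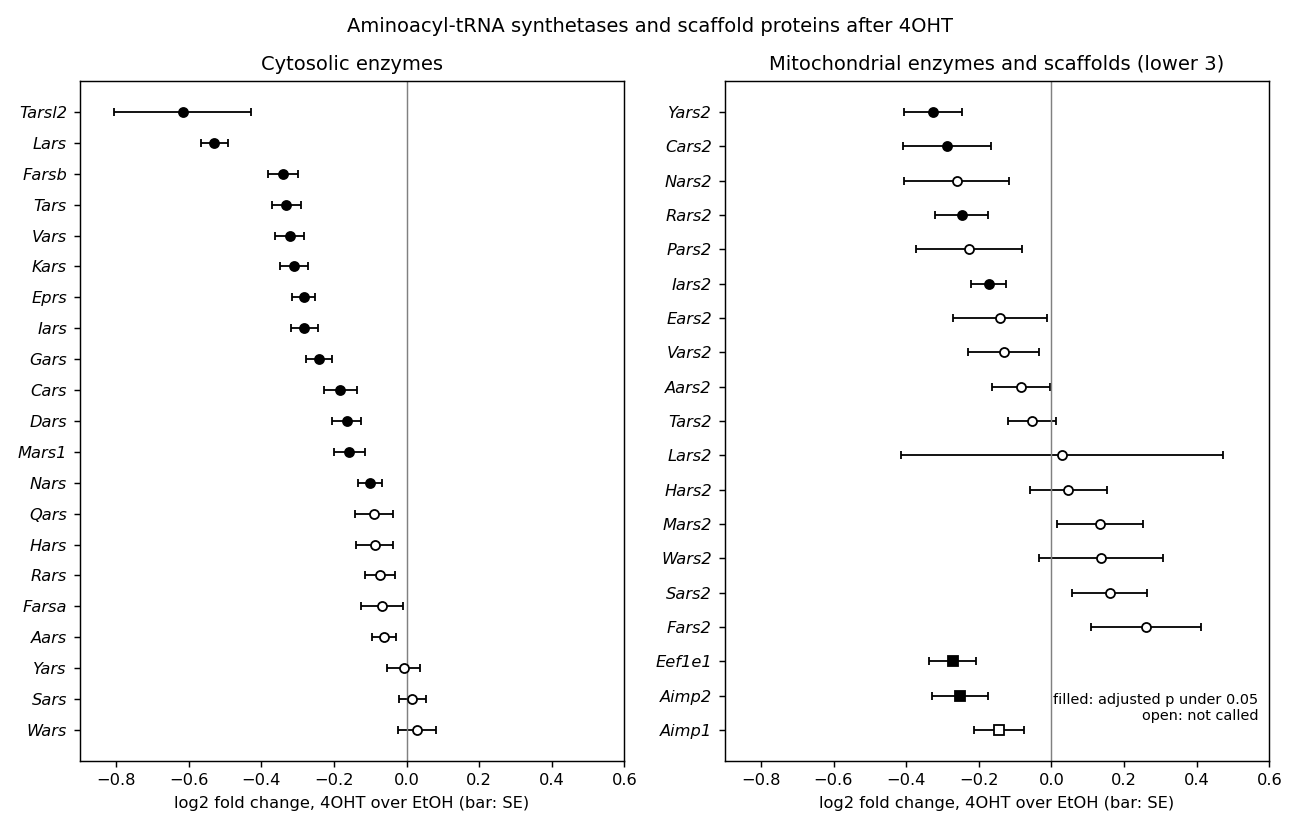
Log2 fold change of 4OHT over EtOH (horizontal axis) for each member named in the text, with its standard error as a bar. Filled symbols have an adjusted p under 0.05 and open symbols do not, squares are the 3 scaffold proteins, and the 19 filled symbols all lie left of 0.

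Levels were compared between genes as TPM (transcripts scaled to a common total), computed from the counts and the gene length in the table. Gars, the glycyl enzyme, averaged 544.5 ± 32.8 TPM in 4OHT and 632 ± 9.20 TPM in EtOH (SD, n = 3 each). Nars, the asparaginyl enzyme, averaged 557 ± 12.4 TPM in 4OHT and 586 ± 2.86 TPM in EtOH. These were the most abundant cytosolic members in both groups. In EtOH they did not overlap, with Gars above Nars, and Eprs and Kars came next among the cytosolic enzymes and overlapped each other. Most cytosolic enzymes lay within a narrow band. Leaving out Tarsl2, their mean TPM ran from 115 to 557 in 4OHT and from 111 to 632 in EtOH. Tarsl2, a further threonyl enzyme of the cytosol, was far below them at 5.67 ± 1.37 TPM in 4OHT and 8.48 ± 1.54 TPM in EtOH.

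The genes of mitochondrial enzymes were lower. Leaving out Lars2, which is described with the ribosomal RNA, the 16 others had a median of 25.5 TPM in 4OHT and 29.4 TPM in EtOH. The 21 cytosolic members had medians of 233 TPM in 4OHT and 278 TPM in EtOH. Iars2, the isoleucyl enzyme, was the highest of the 16 at 104 ± 4.76 TPM in 4OHT and 116 ± 4.09 TPM in EtOH. Wars2, the tryptophanyl enzyme, was the lowest at 6.41 ± 0.391 TPM in 4OHT and 5.72 ± 0.264 TPM in EtOH. The scaffold genes stood among the cytosolic enzymes, with group means between 106.5 and 176 TPM in 4OHT and between 125 and 210 TPM in EtOH (209.7 for Eef1e1, the highest).

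**Figure D2:**
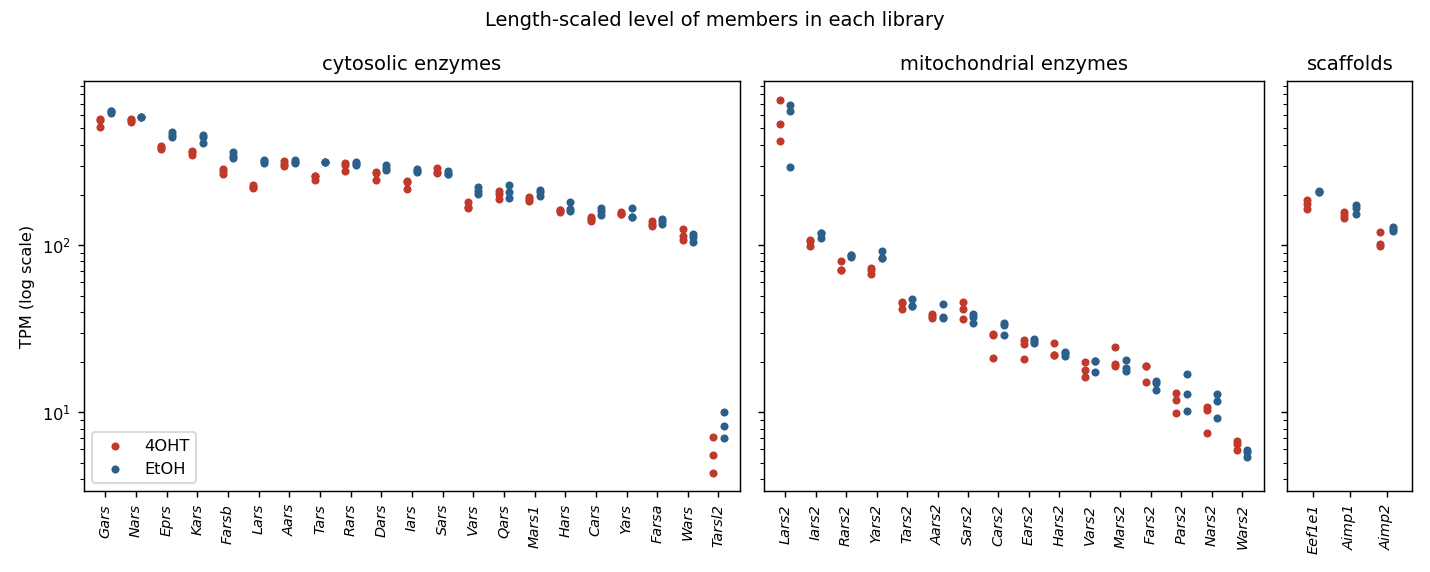
TPM on a log scale (vertical axis) of the members named in the text in each of the 3 libraries of 4OHT and the 3 of EtOH, in 3 panels by compartment and ordered by the EtOH mean. Cytosolic enzymes other than Tarsl2 and the 3 scaffolds lie above most mitochondrial enzymes, and Lars2 stands apart with a wide spread in both groups.

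Among the 21 cytosolic enzymes, 13 were lower in 4OHT and 8 were not called, with a median log2 fold change of −0.165. That is 61.9% called, all lower, against 42% of all tested genes called in either direction and 20.6% called lower. Lars, the leucyl enzyme, which is also known as a sensor of leucine for the growth kinase mTORC1, was at 369.6, 372 and 379 CPM in 4OHT and at 545, 535 and 537 CPM in EtOH. The groups lay far apart and the libraries of each group close together. Lars was 1.44-fold lower (SE 0.04 around a log2 fold change of −0.53, edgeR adjusted p = 1.4e-32). Farsb, the beta subunit of the phenylalanyl enzyme (chromosome 1, 78417958 to 78488897), was at 262, 249 and 264 CPM in 4OHT and at 318, 333 and 329 CPM in EtOH. It was 1.26-fold lower without overlap (SE 0.04 around a log2 fold change of −0.34, edgeR adjusted p = 1.6e-13). Farsa, which encodes the alpha subunit of that enzyme, averaged 108 ± 4.58 CPM in 4OHT and 113 ± 6.0 CPM in EtOH, a log2 fold change of −0.07 that edgeR did not call (SE 0.06, adjusted p = 0.37). The difference between the subunits was not tested.

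Tars, the main cytosolic threonyl enzyme (chromosome 15, 11383663 to 11399658), was at 302, 302 and 280.2 CPM in 4OHT and at 371, 363.5 and 376 CPM in EtOH. All 4OHT values were under all EtOH values, and it was 1.26-fold lower (SE 0.04 on the log2 scale, edgeR adjusted p = 1.2e-13). Tarsl2 (chromosome 7, 65644898 to 65692093) had the greatest fitted fall of any member, 1.53-fold, at low counts: 9.98, 6.13 and 7.65 CPM in 4OHT and 10.1, 14.0 and 12.1 CPM in EtOH. Its highest 4OHT library nearly met its lowest EtOH library (edgeR adjusted p = 0.0042). The call was lost in DESeq2 (adjusted p = 0.0503), without 4OHT replicate 2 (edgeR adjusted p = 0.0502) and without EtOH replicate 2 (edgeR adjusted p = 0.0581).

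Vars, the valyl enzyme, which is known to bind elongation factor eEF1 (chromosome 17, 35000907 to 35016329), was at 309.5, 317 and 332 CPM in 4OHT and at 423.5, 386 and 388 CPM in EtOH. Its log2 fold change was −0.32 (SE 0.04, edgeR adjusted p = 3.0e-13), and the groups were clear of each other. Kars, the lysyl enzyme (chromosome 8, 111993439 to 112011354), was at 352, 334 and 337 CPM in 4OHT and at 445, 419.6 and 401 CPM in EtOH. It was 1.24-fold lower (edgeR adjusted p = 8.9e-13), again without overlap. Kars and Gars each encode both a cytosolic and a mitochondrial form, which these counts pool. Gars (chromosome 6, 55038001 to 55079504) was at 534, 598 and 576 CPM in 4OHT and at 681, 647 and 693 CPM in EtOH, 1.18-fold lower and without overlap (edgeR adjusted p = 6.7e-10). Without Gars and Kars, 11 of 19 cytosolic enzymes were lower.

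A further 6 cytosolic members were lower. Eprs, whose protein joins the glutamyl and prolyl enzymes in a single chain, was 1.22-fold lower (816 ± 5.80 CPM in 4OHT and 992 ± 10.0 CPM in EtOH, edgeR adjusted p = 2.8e-15). Iars, the isoleucyl enzyme, was 1.21-fold lower (edgeR adjusted p = 4.4e-12). Cars, Dars and Mars1, the cysteinyl, aspartyl and methionyl enzymes, were 1.13-fold, 1.12-fold and 1.12-fold lower. Nars was the least changed of them, 1.07-fold lower with an adjusted p of 0.010 in edgeR's test. It no longer passed without 4OHT replicate 1 (edgeR adjusted p = 0.0762) and without EtOH replicate 1 (edgeR adjusted p = 0.0584). Mars1 shares 68 exon bases with Ddit3 on the opposite strand, a stress gene that was higher in 4OHT, and the strand setting of the counting is not given in the sources used here.

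The 8 cytosolic members that were not called had log2 fold changes between −0.09 and 0.03. They were Qars (−0.09), Hars (−0.09), Rars (−0.07), Farsa (−0.07), Aars (−0.06), Yars (−0.01), Sars (0.02) and Wars (0.03), with standard errors between 0.03 and 0.06. The values for Yars, Sars and Wars change sign under alternatives given in the closing section. Aars was called lower without 4OHT replicate 2 (edgeR adjusted p = 0.0319) and Qars without EtOH replicate 2 (edgeR adjusted p = 0.00208). Hars was separated between the groups (139, 143 and 140.4 CPM in 4OHT and 146, 157 and 145 CPM in EtOH) although its adjusted p was 0.16 in edgeR's test.

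**Figure D3:**
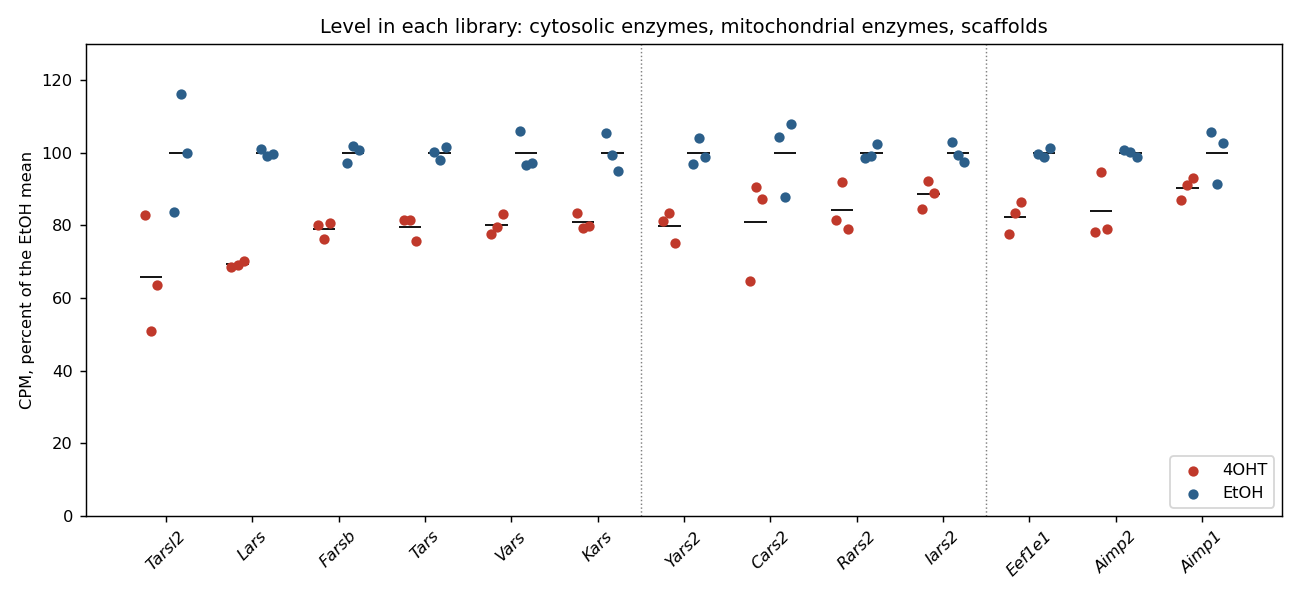
CPM of each library as a percent of the EtOH mean (vertical axis) for the 6 cytosolic enzymes and 4 mitochondrial enzymes with called falls and the 3 scaffold proteins; points are libraries (4OHT left, EtOH right) and lines are group means. Lars shows the clearest gap, while Cars2, Tarsl2 and Aimp1 have libraries that meet or nearly meet.

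Synthetases fall into 2 classes with unrelated catalytic folds. Of the 9 cytosolic enzymes of class I 5 were lower (55.6%), with a median log2 fold change of −0.16. Of the 11 of class II 7 were lower (63.6%), with a median of −0.165. Eprs holds a domain of each class and was left out of both. Of the 8 enzymes that belong to the multisynthetase complex (Dars, Eprs, Iars, Kars, Lars, Mars1, Qars and Rars), 6 were lower (75%), with a median of −0.22. Of the 13 cytosolic enzymes outside it, 7 were lower (53.8%), with a median of −0.10. Among all tested genes, 20.6% were called lower and 42% in either direction. The differences between these groups of enzymes were not tested.

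Of the 3 scaffold genes, 2 were lower in 4OHT and 1 was not called (66.7% called, against 42% of all tested genes). Eef1e1 (chromosome 13, 38645691 to 38659028), which encodes the scaffold protein also called AIMP3, was at 75.3, 81.0 and 83.9 CPM in 4OHT and at 96.9, 96.1 and 98.4 CPM in EtOH. The groups were apart and it was 1.21-fold lower (SE 0.06 on the log2 scale, edgeR adjusted p = 0.00017). Aimp2 (chromosome 5, 143902704 to 143909839), on which the complex is known to depend, was at 51.4, 62.4 and 52.0 CPM in 4OHT and at 66.5, 66.0 and 65.2 CPM in EtOH. It was 1.19-fold lower (SE 0.08 on the log2 scale, edgeR adjusted p = 0.0044), with 4OHT replicate 2 close to the EtOH libraries. The call was lost without 4OHT replicate 3 (edgeR adjusted p = 0.0554), which left 1 of 3 scaffold genes called. Aimp2 also shares 29.4% of its exon bases with Eif2ak1 on the opposite strand, for which edgeR gave a log2 fold change of 0.11 (adjusted p = 0.21). Aimp1 was at 71.8, 75.2 and 76.9 CPM in 4OHT and at 87.4, 75.5 and 84.9 CPM in EtOH. The groups overlapped at EtOH replicate 2, and Aimp1 did not pass at a log2 fold change of −0.14 (edgeR adjusted p = 0.079). Without that library it did (edgeR adjusted p = 0.0219).

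Among the 17 mitochondrial enzymes, 5 were lower in 4OHT and 12 were not called, with a median log2 fold change of −0.13. That is 29.4% called, all lower, against 42% of all tested genes called in either direction and 20.6% called lower. The values of 4 of the 5 follow. Yars2, the tyrosyl enzyme (chromosome 16, 16302965 to 16309640), was at 49.7, 51.0 and 46.1 CPM in 4OHT and at 59.4, 63.75 and 60.5 CPM in EtOH. The groups were apart, with a log2 fold change of −0.33 (SE 0.08, edgeR adjusted p = 0.00030).

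Rars2, the arginyl enzyme (chromosome 4, 34614957 to 34660167), was at 58.8, 66.4 and 57.0 CPM in 4OHT and at 71.1, 71.4 and 73.8 CPM in EtOH, 1.19-fold lower (edgeR adjusted p = 0.0034). Its libraries did not overlap, but the call was lost without 4OHT replicate 3 (edgeR adjusted p = 0.0504). Iars2 (chromosome 1, 185286642 to 185329419) was at 154, 168 and 162 CPM in 4OHT and at 188, 181 and 178 CPM in EtOH, 1.13-fold lower without overlap (edgeR adjusted p = 0.0016). Iars2 shares 24.2% of its exon bases with models on the opposite strand, mainly Rab3gap2, which was not called (log2 fold change 0.04). Cars2, the cysteinyl enzyme (chromosome 8, 11514017 to 11550781), was at 17.2, 24.0 and 23.1 CPM in 4OHT and at 27.6, 23.3 and 28.5 CPM in EtOH. Its groups overlapped, and it was 1.22-fold lower (edgeR adjusted p = 0.046). The call was lost without 4OHT replicate 1 (edgeR adjusted p = 0.322), EtOH replicate 1 (0.164) or EtOH replicate 3 (0.178), and in DESeq2 (adjusted p = 0.172). Without a filter (edgeR adjusted p = 0.0742), or with a filter of 1 CPM in 3 libraries (0.0516), the call was lost too.

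The 12 mitochondrial members that were not called had log2 fold changes between −0.26 and 0.26. They were Nars2 (−0.26), Pars2 (−0.23), Ears2 (−0.14), Vars2 (−0.13), Aars2 (−0.08), Tars2 (−0.05), Lars2 (0.03), Hars2 (0.05), Mars2 (0.13), Wars2 (0.14), Sars2 (0.16) and Fars2 (0.26). Without EtOH replicate 1, Nars2 and Pars2 were called lower (edgeR adjusted p = 0.0466 and 0.0457). Hars2, Mars2, Lars2 and Tars2 change sign under alternatives given in the closing section. The mitochondrial enzymes, called or not, were measured less precisely than the cytosolic ones. For the 16 without Lars2, the median of their mean counts was 161 and the median standard error 0.10. The 21 cytosolic enzymes had a median count of 1526 and a median standard error of 0.04. The part of this precision in the number of calls was not tested.

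The cytosolic enzymes had a lower summed level in 4OHT, and so had the mitochondrial enzymes once Lars2 was left out. The summed TPM of the 21 cytosolic enzymes was 5191, 5264 and 5331 in 4OHT and 5940.2, 5997 and 5828 in EtOH. The sum of the 16 mitochondrial enzymes other than Lars2 was 556, 596 and 577 TPM in 4OHT and 623, 666 and 625 TPM in EtOH. Each of these sums was lower in every 4OHT library than in any EtOH library. With Lars2 the mitochondrial sum was 1299, 1131 and 998 TPM in 4OHT and 1257, 960.4 and 1319 TPM in EtOH, which overlapped. The ratio of the cytosolic sum to the mitochondrial sum without Lars2 was 9.33, 8.83 and 9.24 in 4OHT and 9.53, 9.01 and 9.33 in EtOH, and these overlapped. The counts of called genes, 13 of 21 and 5 of 17, were not compared by a test.

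Setting each mitochondrial enzyme beside the cytosolic enzyme of the same amino acid gave 19 pairings, in which Eprs, Fars2 and Tars2 appear in more than a single pairing. In 13 of them the cytosolic gene had the lower log2 fold change. The ratio of the cytosolic to the mitochondrial gene was lower in every 4OHT library than in any EtOH library for 7 pairings, higher for 3 and overlapping for 9. Of single tested genes, 48.8% were separated in either direction, and no such share was computed for other gene pairs. Among the 7, the pairings of Farsa and Farsb share Fars2, and those of Tars and Tarsl2 share Tars2. The counts therefore do not show a difference between the compartments. For leucine, a fall of Lars stood beside Lars2, whose fold change was not measured with any precision. For phenylalanine, the log2 ratio of Farsb to Fars2 CPM was 4.19, 3.80 and 3.93 in 4OHT and 4.48, 4.72 and 4.48 in EtOH. For threonine, that of Tars to Tars2 was 1.77, 1.76 and 1.82 in 4OHT and 2.11, 1.97 and 2.11 in EtOH.

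Tyrosine and arginine went the other way. The log2 ratio of Yars to Yars2 CPM was 1.97, 1.98 and 2.05 in 4OHT and 1.68, 1.71 and 1.66 in EtOH, where Yars was not called and Yars2 was lower. For Rars and Rars2 it was 2.16, 2.09 and 2.32 in 4OHT and 2.04, 1.97 and 2.04 in EtOH. These ratios are within a library and do not depend on its scaling. With 3 libraries against 3, an exact two-sided permutation test cannot give a p under 0.10, so the ratios are given without a test.

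**Figure D4:**
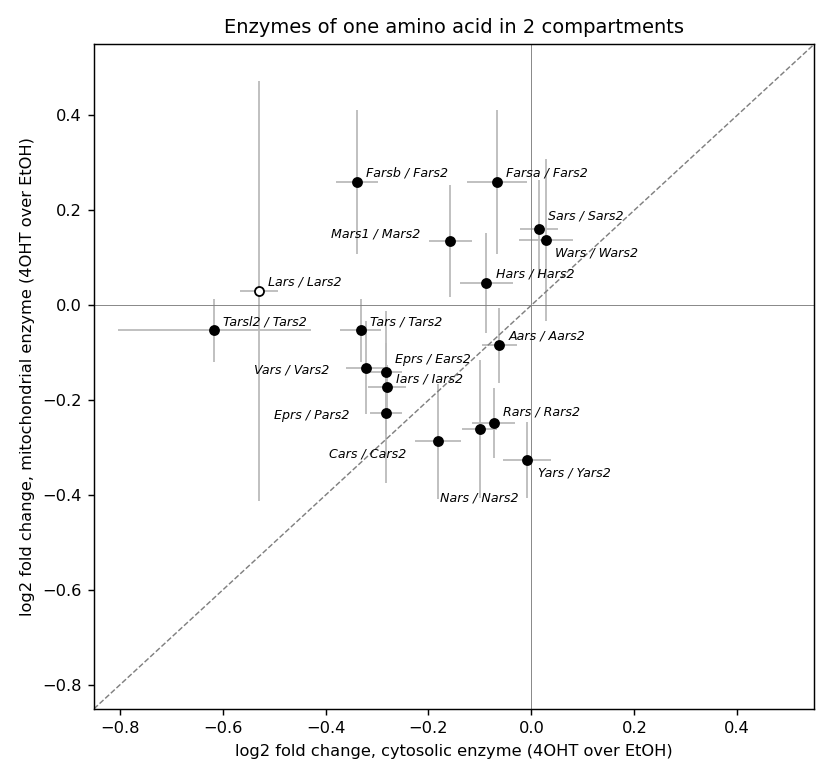
Log2 fold change of 4OHT over EtOH for the cytosolic enzyme (horizontal axis) and the mitochondrial enzyme (vertical axis) of an amino acid, with standard errors as bars, 18 pairings; the dashed line marks equal change and the open circle is the pairing with Lars2. Yars and Yars2 and Rars and Rars2 lie below the line, and Farsb and Fars2 lie well above it.

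Lars2, the mitochondrial leucyl enzyme (chromosome 9, 123366927 to 123462675), was the member with the widest spread. It was at 1271, 914 and 706 CPM in 4OHT and at 1104.5, 498 and 1221 CPM in EtOH, and its level overlapped fully between the groups (SE 0.44 around a log2 fold change of 0.03, edgeR adjusted p = 0.97). The libraries ranked by Lars2 as they ranked by Rn45s, except that 4OHT replicate 1 and EtOH replicate 3 changed places at the top. For each 100 counts of Rn45s there were 11.5, 9.38 and 10.7 counts of Lars2 in the 4OHT libraries and 11.2, 10.4 and 9.31 in the EtOH libraries, while Rn45s ran from 4799 to 13110 CPM (13109.7 in EtOH replicate 3). Rn18s, the small ribosomal RNA, moved alike, with 598, 544 and 355 CPM in 4OHT and 482, 250.5 and 698 CPM in EtOH. Mouse Lars2 is a gene to which reads of ribosomal RNA are known to be assigned. No stretch of 25 bases was shared, on either strand, between the Lars2 transcripts of GENCODE vM21 and 5 GENCODE models of ribosomal RNA loci. The Rn45s and Rn18s sequences were not themselves searched, so the search cannot decide whether their reads were counted as Lars2. The part of ribosomal RNA in the Lars2 counts was not tested. Without Lars2, 5 of 16 mitochondrial enzymes were lower.

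**Figure D5:**
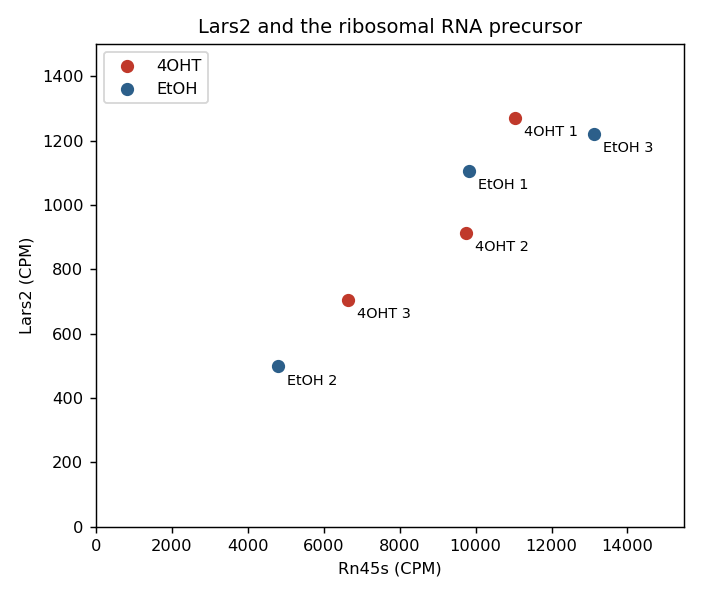
CPM of Lars2 (vertical axis) against CPM of the ribosomal RNA precursor Rn45s (horizontal axis) in the 3 libraries of 4OHT and the 3 of EtOH. The 6 points rise together from EtOH replicate 2, at 4799 and 498 CPM, to EtOH replicate 3 and 4OHT replicate 1 at the top, with both groups mixed.

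Sequences upstream of the members are shown because Tfe3 is known to bind E-boxes holding CACGTG and ATF4 to bind composite elements such as TGATGCAA. RefSeq windows on GRCm38.p6, from 250 bases before to 50 after an annotated start, were held for 31 of the 41 members. CACGTG occurred in 5 of the 31 (Aars, Ears2, Farsb, Iars and Tars), which is 16.1%, and in 7.15% of all 32851 windows of this length. The longer TCACGTGA, which contains it, occurred in Aars and Farsb, against 0.974% of all windows. TGATGCAA, searched on both strands, occurred in 4 members (Aars, Iars, Tars and Yars), which is 12.9%, and in 0.895% of all windows. The looser TGATGNAAN, which takes in TGATGCAA, was found in Gars as well, so in 5 of 31 members and 3.95% of windows. These 5 are all among the 14 cytosolic enzymes with a window, and none of the 14 mitochondrial or 3 scaffold genes with a window held it. At a share of 3.95% of all windows, finding none in so few genes does not set them apart. Members were counted per gene, while the shares over all windows are per window and take in genes that were not tested. The windows of Iars, Tars, Farsb and Aars are given below 5′ to 3′ on the gene's strand, with CACGTG and TGATGNAAN, or its reverse complement, in capitals.
Iars, chr13:49681880-49682179, plus strand: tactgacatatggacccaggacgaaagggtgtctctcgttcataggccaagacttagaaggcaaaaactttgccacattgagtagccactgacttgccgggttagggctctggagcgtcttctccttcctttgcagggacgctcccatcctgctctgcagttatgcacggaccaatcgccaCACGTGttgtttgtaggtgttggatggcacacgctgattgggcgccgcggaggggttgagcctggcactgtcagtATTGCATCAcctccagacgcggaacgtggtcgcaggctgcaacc
Tars, chr15:11399609-11399908, minus strand: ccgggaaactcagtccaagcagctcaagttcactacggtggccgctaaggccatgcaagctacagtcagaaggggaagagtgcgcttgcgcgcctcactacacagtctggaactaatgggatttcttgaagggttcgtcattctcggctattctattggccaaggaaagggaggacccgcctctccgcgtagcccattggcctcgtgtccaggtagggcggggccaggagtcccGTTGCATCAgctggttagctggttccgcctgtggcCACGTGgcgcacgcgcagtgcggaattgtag
Farsb, chr1:78488848-78489147, minus strand: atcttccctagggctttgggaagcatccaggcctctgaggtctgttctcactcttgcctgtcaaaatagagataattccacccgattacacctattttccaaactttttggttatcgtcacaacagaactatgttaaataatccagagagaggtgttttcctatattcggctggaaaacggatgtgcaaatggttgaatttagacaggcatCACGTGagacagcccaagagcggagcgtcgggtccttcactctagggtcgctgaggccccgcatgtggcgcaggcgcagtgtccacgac
Aars, chr8:111033592-111033891, plus strand: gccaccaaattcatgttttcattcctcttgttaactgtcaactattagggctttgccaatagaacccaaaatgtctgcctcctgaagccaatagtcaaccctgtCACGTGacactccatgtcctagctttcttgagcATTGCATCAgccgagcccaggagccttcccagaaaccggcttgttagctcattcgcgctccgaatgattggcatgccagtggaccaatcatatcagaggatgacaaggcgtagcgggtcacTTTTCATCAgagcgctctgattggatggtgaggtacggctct

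Counted from the start of the window's transcript, CACGTG began 69 bases upstream in Iars, at base 20 of the transcript in Tars, 39 upstream in Farsb and 146 upstream in Aars. The match to TGATGNAAN began at base 7 in Iars, 16 bases upstream in Tars and 113 upstream in Aars, where a second lay downstream of the start. Of the 15 lower members with a window, 3 held CACGTG and 3 TGATGNAAN, and of the 16 members not called with a window, 2 held each. Iars, Tars and Farsb were lower in 4OHT, and Aars, which held every motif searched, was not called. A match is a description of these letters and not a bound site.

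Several members lie head to head with another gene. In GENCODE vM21, 12 of the 41 have a protein-coding gene that starts on the opposite strand within 1000 bases. Of these 12 neighbours, 4 were lower and 1 was higher, and in 2 pairs both genes were lower. Among all tested genes, 20.6% were called lower and 21.4% higher. Ubfd1 and Mrps12 were lower beside Ears2 and Sars2, which were not called. Rars2 starts 13 bases from Orc3, a gene of the replication origin complex, and both were lower (log2 fold change −0.25 for Rars2 and −0.31 for Orc3, edgeR adjusted p = 0.0034 and 7.0e-06). Aimp2 and the mismatch repair gene Pms2, 117 bases apart, were also both lower (−0.25 and −0.32, edgeR adjusted p = 0.0044 and 0.0082). Kars was lower and Terf2ip, a telomere gene 75 bases away, was higher (0.46, edgeR adjusted p = 0.0010). Hars and Hars2, the enzymes for histidine in the 2 compartments, start 197 bases apart and share 195 exon bases, and neither was called. Of the 41 members, 17 share exon bases with another gene model and 2, Aimp2 and Iars2, share at least 20% of them.

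Genes of the ATF4 response and amino acid synthesis moved in both directions. Of 27 tested, 15 were lower, 3 were higher and 9 were not called (66.7% called, against 42% of all tested genes), with a median log2 fold change of −0.22. Psat1, an enzyme of serine synthesis, averaged 518 ± 18.1 CPM in 4OHT and 899 ± 13.4 CPM in EtOH (1.73-fold lower, edgeR adjusted p = 9.4e-63). Aldh18a1 and Mthfd2, enzymes of proline synthesis and of mitochondrial folate metabolism, were 1.44-fold and 1.42-fold lower. Xpot, which exports tRNA from the nucleus, was 1.23-fold lower (edgeR adjusted p = 5.6e-10). Atf4 itself was at 256, 224 and 244.5 CPM in 4OHT and at 272, 262 and 270.1 CPM in EtOH, 1.11-fold lower (edgeR adjusted p = 0.0018), and did not pass without 4OHT replicate 2 (edgeR adjusted p = 0.0629). The higher members were Ddit3 (2.31-fold), Atf5 (1.42-fold) and Cebpb (1.42-fold). Cebpb did not pass in DESeq2 (adjusted p = 0.106) or without 4OHT replicate 2, EtOH replicate 1 or EtOH replicate 2 (edgeR adjusted p between 0.0546 and 0.130). Asns, the asparagine synthetase and a standard ATF4 target, was named after its values were seen and was not called (507, 478 and 484.5 CPM in 4OHT and 496, 509.5 and 475 CPM in EtOH). Of the 13 synthetases often reported as ATF4 targets 9 were lower (69.2%), with a median log2 fold change of −0.18. Of the 8 other cytosolic ones 4 were lower (50%), with a median of −0.13. Among all tested genes 20.6% were called lower, and the difference between these sets of synthetases was not tested. Among 11 tested genes of eIF2 alpha kinases, their regulators, eIF2 subunits and phosphatase subunits 3 were higher and 1 lower, with a median of 0.11. That is 36.4% called, against 42% of all tested genes. The kinase genes Eif2ak1, Eif2ak2, Eif2ak3 and Eif2ak4 were not called. Impact, an inhibitor of Gcn2, was 1.63-fold higher (282 ± 11.3 CPM in 4OHT and 173 ± 5.91 CPM in EtOH, edgeR adjusted p = 1.5e-37). Eif2s2 and Ppp1r15b were 1.13-fold and 1.07-fold higher. Ppp1r15b passed without 4OHT replicate 2 and failed when any other library was left out (edgeR adjusted p between 0.0667 and 0.140). It also failed in DESeq2 (adjusted p = 0.131) and with upper quartile factors (edgeR adjusted p = 0.207). With DESeq2 size factors, no filter or a replicate block it failed narrowly (edgeR adjusted p between 0.0512 and 0.056). Eif2s1, the phosphorylated subunit, was 1.17-fold lower.

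Other steps in the making and use of tRNA were followed as lists. Of 24 tested genes of tRNA editing, end repair and processing, 11 were lower and 2 higher (54.2% called, against 42% of all tested genes), with a median log2 fold change of −0.21. The lower ones included Ssb, which encodes the La protein that binds new tRNA transcripts (1.22-fold, edgeR adjusted p = 1.1e-10), and Dtd1, a proofreading deacylase (1.63-fold, edgeR adjusted p = 5.4e-09). Trnt1, which adds the CCA end, was 1.33-fold lower. Rpp25 and Rpp21, subunits of the tRNA-trimming RNase P, were 1.53-fold and 1.40-fold higher. Rpp21 failed without 4OHT replicate 3, EtOH replicate 2 or EtOH replicate 3 (edgeR adjusted p between 0.0549 and 0.122), and in DESeq2 (adjusted p = 0.106). Of 23 tested genes of RNA polymerase III, which transcribes tRNA genes, 8 were lower and 2 higher, with a median of −0.11. That is 43.5% called, near the 42% of all tested genes. The log2 fold changes of Polr3g, Polr3gl and Polr3b were −0.26, −0.63 and −0.26, and the factors Gtf3c4 and Gtf3c1 were 1.21-fold and 1.09-fold higher. Gtf3c1 failed without 4OHT replicate 2 or EtOH replicate 1 (edgeR adjusted p = 0.108 and 0.264). It also failed with upper quartile factors (edgeR adjusted p = 0.132) and in DESeq2 (adjusted p = 0.15).

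In translation beyond the synthetases, Eef1d, an exchange factor of the eEF1 complex, was 1.30-fold lower (302 ± 19.7 CPM in 4OHT and 394 ± 13 CPM in EtOH, edgeR adjusted p = 5.2e-17). Eef2k, the kinase that inhibits elongation factor eEF2, was 1.82-fold higher (edgeR adjusted p = 2.2e-17). It averaged 59.1 ± 1.98 CPM in 4OHT and 32.3 ± 3.20 CPM in EtOH. Among 6 tested elongation genes, 2 were higher and 1 lower (50% called, against 42% of all tested genes). Eef1g was 1.06-fold higher, but failed without 4OHT replicate 2, EtOH replicate 2 or EtOH replicate 3 (edgeR adjusted p between 0.0563 and 0.315). It also failed in DESeq2 (adjusted p = 0.124). With DESeq2 size factors, upper quartile factors or no filter it failed too (edgeR adjusted p between 0.051 and 0.254). Of 22 tested genes of mitochondrial translation, a list without the synthetases and the proteins named Mrpl or Mrps, 8 were lower and 14 were not called (36.4% called, against 42% of all tested genes), with a median log2 fold change of −0.15. The count was 5 without 4OHT replicate 1, EtOH replicate 2 or EtOH replicate 3. Ptcd3, a protein that binds the small subunit of the mitochondrial ribosome, was 1.26-fold lower (edgeR adjusted p = 6.7e-11). Gfm2 was 1.23-fold and the recycling factor gene Mrrf 1.39-fold lower. Qrsl1, a subunit of the amidotransferase that makes glutaminyl-tRNA in mitochondria, where a separate glutaminyl enzyme is lacking, was 1.24-fold lower (edgeR adjusted p = 0.024). It failed without 4OHT replicate 2, EtOH replicate 2 or EtOH replicate 3 (edgeR adjusted p between 0.0634 and 0.0890), and in DESeq2 (adjusted p = 0.106). Of 6 tested genes of selenocysteine tRNA, Sephs1 and Sephs2 were lower, 1.18-fold and 1.13-fold (33.3% called, against 42% of all tested genes).

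Markers of other cells moved in both directions beside these changes. Of 7 tested trophectoderm markers of 10 listed, 6 were higher (85.7% called, against 42% of all tested genes). The 10 summed to 971 to 990.1 CPM in 4OHT and 455.5 to 478 CPM in EtOH, while Cdx2 and Elf5 were too low to be tested. Most of the sum came from the keratins Krt8 (means of 489.5 CPM in 4OHT and 219.5 CPM in EtOH) and Krt18 (371 and 161 CPM). Hand1 was higher at a low level (9.0 and 1.5 CPM). Tfap2c lost its call in DESeq2 (adjusted p = 0.0681) and without EtOH replicate 1 (edgeR adjusted p = 0.0622). Of 5 tested primitive endoderm markers of 10 listed, Col4a1 was higher and 4 were not called (20% called, against 42% of all tested genes). The 10 listed summed to 321 to 340.4 CPM in 4OHT and 225 to 226 CPM in EtOH. Most of that sum came from Col4a1 (means of 202 CPM in 4OHT and 104 CPM in EtOH) and Lama1 (102.5 and 100.2 CPM, not called). Gata6, Sox17 and Pdgfra were too low to be tested. All 7 tested formative and primed markers of 8 listed were lower (100% called, against 42% of all tested genes called and 20.6% called lower). The 8 listed summed to 443 to 452.5 CPM in 4OHT and 988 to 1014 CPM in EtOH. Dnmt3b (means of 323 CPM in 4OHT and 641 CPM in EtOH) and Dnmt3a (66.0 and 217 CPM) made up most of it. The groups of Otx2 overlapped, and its call was lost in DESeq2 (adjusted p = 0.0731) and without 4OHT replicate 1, 4OHT replicate 2 or EtOH replicate 3 (edgeR adjusted p between 0.0601 and 0.133). Of 4 tested fibroblast markers of 8 listed, 4 were not called (0% called, against 42% of all tested genes). Their list of 8 summed to 19.75 to 24.2 CPM in 4OHT and 15.3 to 23.6 CPM in EtOH. The part of these cell states in the fall of the synthetases was not tested. In bulk RNA, fewer cells of a type and less RNA per cell cannot be told apart.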

How the data were processed

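The 6 mRNA libraries were prepared with a strand-marking kit, per the labels' protocols. The values the authors deposited are raw read counts for every gene and library, without normalization, plus each gene's length, per the file headers. The submitters' processing notes list fastp, STAR, featureCounts and mm10 without roles. Not given in the sources used here were tool versions, annotation, strand setting and handling of multimapping reads.

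Of 27179 genes, 1314 had no symbol (between 0.411% and 0.478% of a library's counts) and stayed in by Entrez identifier. Genes were kept by filterByExpr (minimum count 10, minimum total 15), which left 12345, scaled with TMM factors and compared with edgeR 4.0.16 (robust quasi-likelihood) under R 4.3.3. P-values were adjusted by Benjamini-Hochberg across the 12345. Fold changes set 4OHT over EtOH, and each SE was obtained by dividing the size of the log2 fold change by the root of F. CPM uses the library size of kept genes times its TMM factor. TPM uses all genes and the deposited length. Positions are those of RefSeq on GRCm38, the build also called mm10, where all 41 members matched by identifier, and the promoter sequences are RefSeq's. Exon overlaps come from GENCODE vM21.

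The members, lists and tests were chosen with earlier results of these data known. All members are named except 1, which counts in the totals and is not reported here. Values per library are given for the 6 cytosolic and up to 6 mitochondrial enzymes with the greatest called change, the scaffolds, Gars, Kars and Lars2, and from a list those with the lowest p-values, 3 or fewer per direction, are named if called. Where others appear (Eprs, Hars, Farsa, Asns, Atf4, Xpot, Qrsl1 and the neighbouring genes among them) they were chosen after their values were seen. Alternatives covered scaling (upper quartile or DESeq2 size factors), filtering (none, or 1 CPM in 3 libraries), other tests (limma-voom from limma 3.58.1 and DESeq2 1.42.0), each library omitted in turn, a replicate block, an adjusted p under 0.01, a minimum absolute log2 fold change of 0.322, and the omission of Rn45s, of Lars2, or of Gars and Kars. The steps were tested on simulated counts with known changes, in which every gene had the common dispersion of 0.00129. That is a check of the code and does not cover genes with a wider spread, such as Lars2. Every pair of libraries in a group differed by more than counting error.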

Additional observations from a re-analysis of the deposited data

How the results depend on the processing

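With a minimum absolute log2 fold change of 0.322, 1289 genes were called lower in place of 2546, 4 cytosolic enzymes in place of 13, 2 mitochondrial enzymes in place of 5, 0 scaffold genes in place of 2 (3 at an unadjusted p under 0.05 in edgeR, and 2 after adjustment in both DESeq2 and limma-voom with no minimum), and 27 genes of the pathway lists in place of 58. Fewer genes can pass this by its construction. Leaving out each library gave between 12 and 13 lower cytosolic enzymes, between 4 and 6 mitochondrial enzymes and between 1 and 3 scaffold genes, and DESeq2 gave 12, 4 and 2. Upper quartile factors gave 16, 5 and 3 and moved the median of all genes from 0.00 to −0.04. None of the alternatives run called a member higher.

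Libraries were not paired by number, since the labels do not tie a number to a culture or day and same-numbered libraries deviated with correlations of −0.02, −0.02 and −0.02. With the replicate block, 2585 genes were higher and 2497 lower in all, and 13 cytosolic enzymes, 5 mitochondrial enzymes and 2 scaffold genes were lower.

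Signs turned for members that were not called. With upper quartile factors the log2 fold change was −0.0181 for Sars, −0.0051 for Wars and −0.0044 for Lars2. Leaving out each library gave −0.0008 (without 4OHT replicate 3) to 0.0320 for Sars, −0.0293 (without 4OHT replicate 1) to 0.0889 for Wars, and −0.0323 to 0.0343 (without EtOH replicate 2) for Yars. It gave −0.0289 (without 4OHT replicate 3) to 0.0886 for Hars2, −0.2771 (without EtOH replicate 2) to 0.2557 for Lars2, −0.0012 (without 4OHT replicate 2) to 0.2255 for Mars2, and −0.0850 to 0.0077 (without 4OHT replicate 3) for Tars2. Wars (without EtOH replicate 1, −0.0126), Yars (without 4OHT replicate 3, 0.0140) and Lars2 (without 4OHT replicate 1, −0.2150) each turned a further time. The causes were not tested.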
